A study of Mus musculus with 6 samples.

Results

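Bcl2, Apaf1, Casp6, Ripk3 and Cycs are 5 genes of the machinery by which cells live or die, out of 41096 genes measured in the left cochlea of sound-exposed mice. They were selected on the comparison of these same animals: each symbol stands in the authors' deposited lists of up-regulated genes (Bcl2, Apaf1, Casp6 and Ripk3) or down-regulated genes (Cycs). Because that comparison chose them, their group differences are a description and carry no test. Total RNA was sequenced from 6 animals, of which specimens 6, 8 and 10 form the sound trauma group and specimens 13, 18 and 20 the MSC treated group. The sound trauma animals heard a 16 kHz narrow band tone for 4 h and, per the study's methods, received 1 µl of artificial perilymph in the posterior semicircular canal 48 h later, while the labels describe them as exposed to noise alone. The MSC treated animals heard the same tone and received by that route mesenchymal stromal cells (MSCs) grown from Wharton's jelly, the connective tissue of the umbilical cord, of human donors, carried in PBS. Cells and carrier therefore differed together and cannot be told apart. All were female mice of the C57BL/6 strain (spelled C56Bl/6 in the labels), 4 weeks old per the methods. The labels place the RNA 2 days after treatment and the methods 72 h after it. The methods give 5 animals per group, of which the 3 per group with labels here were analysed.

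Apoptosis through mitochondria turns on a contest at the outer mitochondrial membrane. Bcl2 holds that membrane closed. Once the membrane opens, cytochrome c (Cycs), otherwise an electron carrier of the respiratory chain, leaks out and assembles with Apaf1 into the apoptosome. That complex starts a chain of caspases, further down which stands the executioner caspase-6 (Casp6). Ripk3 is the kinase of a separate route, necroptosis, in which the cell membrane is ruptured and inflammatory content escapes. Both routes have been studied in hair cells and spiral ganglion neurons after loud sound, so the balance between survival and death genes is the question that this comparison addresses.

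The libraries held 9170390 to 11030863 reads on genes. Values below are scaled counts (reads times a factor set for each library by the authors), and 1 read was worth 0.893 to 1.16 scaled counts. Skeletal muscle transcripts, by 13 named marker genes, took 8.51% of the reads in sound trauma specimen 6 and 5.30% in MSC treated specimen 13, against 0.410% to 2.29% in the other 4 libraries. Neuronal transcripts, by 13 named markers of a list for brain neurons, summed to 34031 scaled counts in sound trauma specimen 8 and to between 4963 and 10748 elsewhere. The most abundant were Snap25, Slc17a7, Camk2a and Syt1. Whether these transcripts came from brain or from neurons of the cochlea was not tested. The labelled tissue was checked with the 6 of 16 cochlear markers that have a name in the table (the most abundant being Otog, Otoa, Otof and Kcnq1), none of which was at 0 in any library. Their sum was 1846 and 1987 in sound trauma specimens 6 and 8 and 3131 to 4544 in the other 4 libraries. A marker has a name only where the authors listed it on this contrast: all 6 cochlear markers were listed as up-regulated and all 13 muscle and all 13 neuron markers as down-regulated, so that which group is higher in these sums follows from the selection. The sums are given as a description of the libraries, and the log2 differences of the 5 members are also given with libraries left out. In a bulk sample, fewer cells of a type and less RNA per cell cannot be told apart.

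The promoters of 3 members are shown because their transcripts followed different patterns over the libraries: Bcl2 and Ripk3 ran together, and Cycs ran apart from both. Each window is the 250 bases before the gene's start in RefSeq on GRCm38.p6, read on the gene's own strand. The build differs from the C57BL/6NJ genome that the authors used, so the sequences are reference sequences and not those of these animals. Bcl2 lies at chr1:106714291-106714540 (minus strand), Ripk3 at chr14:55788858-55789107 (minus strand) and Cycs at chr6:50566570-50566819 (minus strand). Capitals mark a cyclic AMP response element, the only letters marked.
Bcl2: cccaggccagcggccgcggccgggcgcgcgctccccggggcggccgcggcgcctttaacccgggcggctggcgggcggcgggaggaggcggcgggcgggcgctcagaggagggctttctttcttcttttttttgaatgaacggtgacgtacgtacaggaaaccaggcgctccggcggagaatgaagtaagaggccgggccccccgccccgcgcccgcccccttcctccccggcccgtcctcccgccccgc
Ripk3: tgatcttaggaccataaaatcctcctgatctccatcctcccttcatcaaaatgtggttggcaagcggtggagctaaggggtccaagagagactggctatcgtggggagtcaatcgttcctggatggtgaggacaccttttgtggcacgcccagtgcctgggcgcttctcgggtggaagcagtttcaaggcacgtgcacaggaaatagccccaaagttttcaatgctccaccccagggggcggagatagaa
Cycs: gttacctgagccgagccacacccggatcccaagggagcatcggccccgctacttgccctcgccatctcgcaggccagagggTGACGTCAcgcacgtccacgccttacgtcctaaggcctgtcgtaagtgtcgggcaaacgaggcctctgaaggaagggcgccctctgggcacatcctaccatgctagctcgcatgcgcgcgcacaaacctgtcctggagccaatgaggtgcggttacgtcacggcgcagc

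The cyclic AMP response element (TGACGTCA, both strands) was present in the Cycs window, starting 169 bases before the gene's start, and in none of the other 4 windows. It was found in 508 of 32851 RefSeq promoter windows of the same length (1.55%). The GC box (GGGCGG, both strands) was found 7 times in the Bcl2 window, 2 times for Apaf1, 1 time each for Casp6 and Ripk3 and 0 times for Cycs, and 32.7% of all windows hold at least 1. The motif of nuclear respiratory factor 1 (GCGCA, then any base, then GCGC; both strands), common before genes of mitochondrial proteins, was in none of the 5 windows and in 3.74% of all windows. GC content was 74.8% for Bcl2, 75.6% for Apaf1, 64% for Cycs, 58.4% for Casp6 and 54% for Ripk3, against a median of 52.4% over all windows. Bcl2 and Ripk3, which ran together in the libraries, thus had windows of unlike base composition. These matches describe letters in a window and not bound sites.

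Bcl2 (MGP_C57BL6NJ_G0016770), the survival gene, was lowest in sound trauma specimen 6. Specimens 6, 8 and 10 (sound trauma) had 286, 341 and 469.9 scaled counts. Specimens 13, 18 and 20 (MSC treated) had 396, 533 and 523. Sound trauma specimen 10 lay above MSC treated specimen 13, so the groups overlapped. The means were 366 ± 94.3 for sound trauma and 484 ± 76.6 for MSC treated animals (SD, n = 3 each), a ratio of 1.32. On the scale of log2(scaled count + 1), which slightly understates changes of low genes, the difference was 0.42 with a standard error of 0.22 in the limma fit. It was 0.26 without sound trauma specimen 6. The coefficient of variation between animals was 25.8% in the sound trauma group and 15.8% in the MSC treated group, against 5.34% and 4.60% from counting error alone.

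Apaf1 (MGP_C57BL6NJ_G0018041), the scaffold of the apoptosome, differed between the groups mainly through 1 animal. In the same order of specimens, it had 241, 396 and 442 scaled counts after sound trauma alone, and 426, 436 and 447 after MSC treatment. Sound trauma specimen 6 was far below the other 5 libraries, and specimen 10 was within the MSC treated range. The means were 359.7 ± 105 and 437 ± 10.8 (SD, n = 3 each), and the log2 difference was 0.33 (standard error 0.24). Without specimen 6 it was 0.061, and without sound trauma specimen 10 it was 0.50.

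Casp6 (MGP_C57BL6NJ_G0028292), a caspase whose substrates include the nuclear lamins, was the only one of the 5 members in which all MSC treated values were above all sound trauma values. The sound trauma libraries had 98.5, 131 and 140.3 scaled counts, with specimen 6 the lowest. The MSC treated libraries had 157, 158 and 155. Separation of this kind in the upward direction was seen in 678 of 15970 genes tested (4.25%), and in the downward direction in 466 genes (2.92%), with 0 members among the latter. Since the same contrast chose the members, nothing is read from these counts. The ratio of means was 1.27 and the log2 difference 0.36 (standard error 0.19), or 0.21 without specimen 6. The depth bears on this gene: specimen 10 held 157 reads with an exact 95% Poisson interval, for counting error only, of 119 to 164 scaled counts, which overlaps the interval of 133 to 184 in MSC treated specimen 13.

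Ripk3 (MGP_C57BL6NJ_G0021773), the necroptosis kinase, had the largest log2 difference of the 5, 0.48 (standard error 0.27). The sound trauma libraries had 73.0, 100.4 and 146 scaled counts in specimens 6, 8 and 10. The MSC treated libraries had 137, 148 and 145 in specimens 13, 18 and 20. Sound trauma specimen 10 was above 2 of the 3 MSC treated animals, and specimens 6 and 8 were below all of them. The means were 106 ± 36.7 and 143 ± 5.60 (SD, n = 3 each), a ratio of 1.35. The log2 difference was 0.24 without sound trauma specimen 6 and 0.74 without sound trauma specimen 10.

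Cycs (MGP_C57BL6NJ_G0031166), cytochrome c, was the member listed as down-regulated. The sound trauma libraries had 1814, 598 and 639.7 scaled counts, and the MSC treated libraries had 1222, 577 and 582, with specimens 6 and 13 the highest. One animal of each group was high, and the other 4 lay between 577 and 639.7. The means were 1017 ± 690.3 and 794 ± 371 (SD, n = 3 each), a ratio of 0.780. The log2 difference was -0.25 with a standard error of 0.50, and it turned to 0.27 without sound trauma specimen 6. Leaving out specimen 8, 10 or 13 gave -0.53, -0.49 or -0.61, and leaving out specimen 18 or 20 gave -0.069 or -0.076. Cycs has near-identical processed pseudogenes in the mouse genome, and how reads shared with them were counted is not given in the sources used here.

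**Figure D1:**
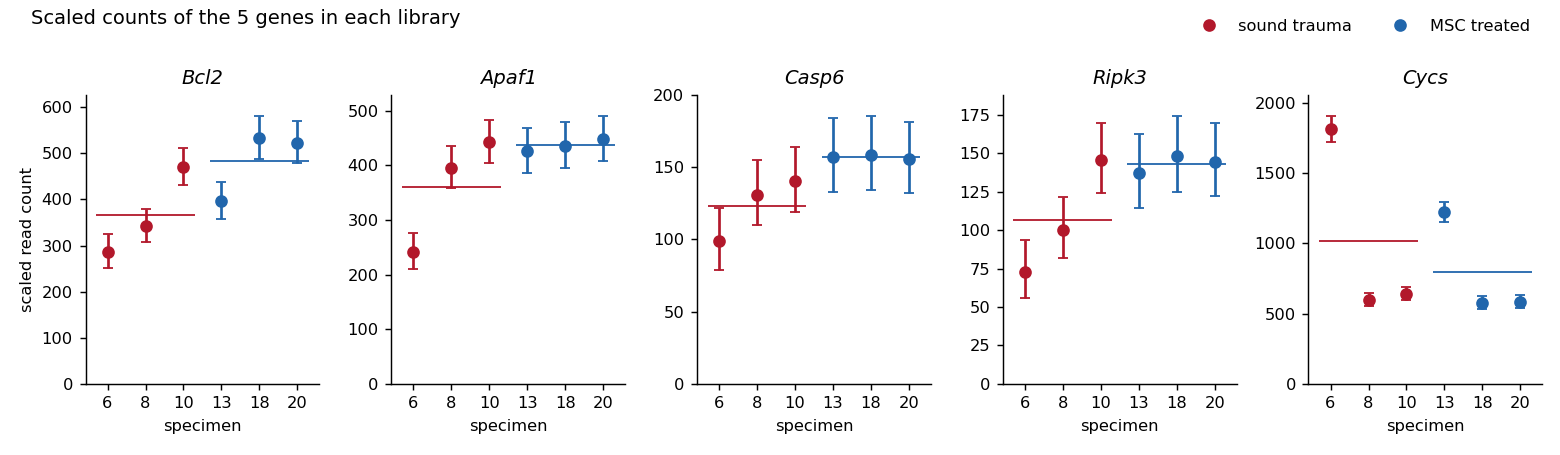
Scaled read counts (vertical axis, from 0) of the 5 genes in each specimen, sound trauma in red and MSC treated in blue. Points are single libraries, bars are exact 95% Poisson intervals for counting error, and horizontal lines are group means. Sound trauma specimen 6 is the lowest library for Bcl2, Apaf1, Casp6 and Ripk3 and the highest for Cycs.

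Levels can be compared between genes only per length, for which the authors' mean FPKM of each group is the value at hand. Cycs was the most abundant, at 39.1 for sound trauma and 32.8 for MSC treated animals. Ripk3 followed at 5.39 and 7.53, then Bcl2 at 3.97 and 5.49, Apaf1 at 3.97 and 4.99, and Casp6 at 2.19 and 2.89. These means come without an SD, and Bcl2 and Apaf1 could not be ordered in the sound trauma group.

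No p is given for the members. Over all 15970 genes tested by limma on log2(scaled count + 1), 0 genes (0%) had an adjusted p under 0.05. At an unadjusted p under 0.05 there were 376 genes (2.35%), 107 lower and 269 higher with MSC treatment, and edgeR (266 lower, 259 higher) and DESeq2 (550 lower, 249 higher) also had 0 after adjustment, so that the tools differed in which direction was the more frequent at the unadjusted limit. A log2 difference at least as high as that of Bcl2 was found in 8.44% of the genes tested, and the shares were 6.17% for Ripk3, 11.3% for Casp6 and 13.5% for Apaf1. A difference at least as low as that of Cycs was found in 18.3%.

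The spread within the groups was unequal for Apaf1, Ripk3 and Casp6. The coefficient of variation of Apaf1 was 29.3% for sound trauma and 2.47% for MSC treated animals. That of Ripk3 was 34.5% and 3.91%, and that of Casp6 was 17.8% and 0.953%. In the MSC treated group these values were below the 4.81%, 8.40% and 8.03% that counting error alone gives at the depth of these genes, so that no difference between those animals was detectable. Cycs had 67.9% and 46.7%, both far above its counting error of 3.42% and 3.74%. A lower spread in the MSC treated group was found in 12358 of the 15970 genes (77.4%), with medians of 13.2% there and 22.9% in sound trauma, and so was not particular to these genes.

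The balance between survival and death genes was read as the ratio of Bcl2 to each death gene within a library, which removes the scaling. Bcl2 over Apaf1 was 1.19, 0.862 and 1.06 for specimens 6, 8 and 10 of the sound trauma group, against 0.929, 1.22 and 1.17 for specimens 13, 18 and 20 of the MSC treated group. The groups overlapped, and the mean log2 ratio differed by 0.096 against SDs of 0.23 and 0.21. Bcl2 over Casp6 was 2.91, 2.61 and 3.35 after sound trauma alone and 2.52, 3.37 and 3.37 with MSC treatment, a log2 difference of 0.060. Bcl2 over Ripk3 was 3.92, 3.40 and 3.23 against 2.89, 3.60 and 3.62, a log2 difference of -0.061. In these 3 ratios the difference between groups was smaller than the SD within either group, and its sign turned with at least 1 single library left out. Bcl2 stood higher in MSC treated animals by about as much as Apaf1, Casp6 and Ripk3 did. Each of these genes was listed as up-regulated on this contrast, so similar upward shifts follow in part from the selection.

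The ratio to cytochrome c had a wider gap, which rested on specimen 6. Bcl2 over Cycs was 0.158, 0.571 and 0.735 after sound trauma alone and 0.324, 0.924 and 0.898 with MSC treatment. The log2 difference was 0.67, against SDs of 1.19 and 0.86, and -0.0056 without specimen 6. It was 0.92 without specimen 8, 1.10 without specimen 10, 1.17 without specimen 13, and 0.41 and 0.43 without specimens 18 and 20. The lowest ratio in each group belonged to the library with the most Cycs. The log2 scaled count of Bcl2 minus the mean of that of all 4 death genes was 0.52 ± 0.25 after sound trauma alone and 0.71 ± 0.37 with MSC treatment (SD, n = 3 each), a difference of 0.19. Scaled counts are not per length, so only the difference between groups is read from these ratios and not which gene had the higher level. The difference was 0.066 without specimen 6, 0.20 without specimen 8, 0.31 without specimen 10 and 0.41 without specimen 13. It was 0.078 without specimen 18 and 0.090 without specimen 20, and it turned to -0.054 without specimens 6 and 8. With Cycs removed from that mean the difference was 0.031. It turned to -0.047 without specimen 8, -0.035 without specimen 18 and -0.025 without specimen 20. Without specimens 6, 10 and 13 in turn it was 0.089, 0.052 and 0.15.

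**Figure D2:**
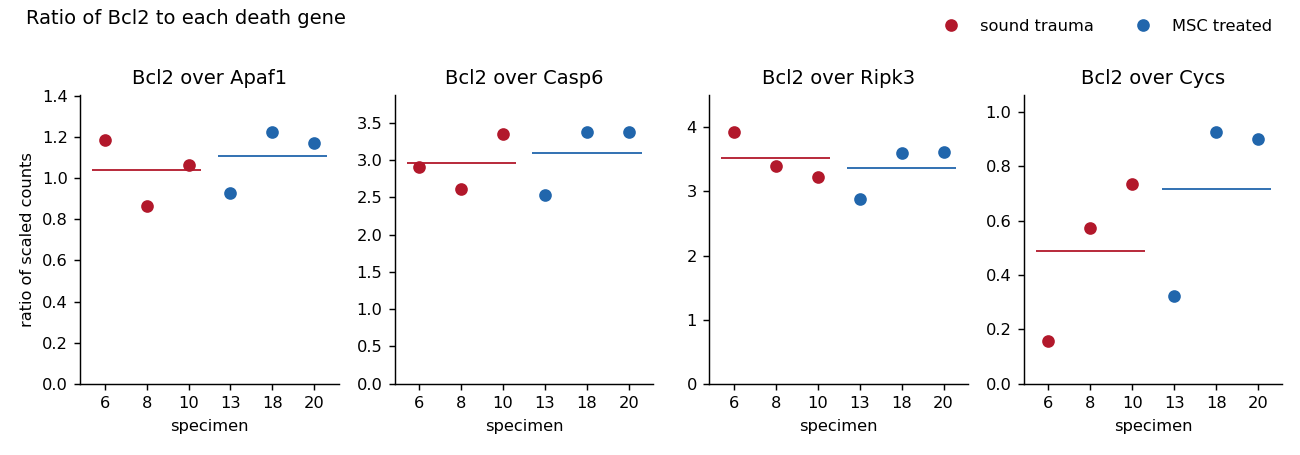
Ratio of the scaled count of Bcl2 to that of each death gene (vertical axis, no unit, from 0) in each specimen, with lines at the group means of the ratios. The 2 groups overlap in all 4 panels, and the ratio to Cycs is lowest in specimens 6 and 13.

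The 4 members listed as up-regulated ran together over the 6 libraries. On the log2 scale, Pearson's r was 0.947 for Casp6 and Ripk3, 0.946 for Apaf1 and Casp6, 0.935 for Apaf1 and Ripk3, 0.931 for Bcl2 and Ripk3, 0.851 for Bcl2 and Casp6 and 0.828 for Bcl2 and Apaf1. With Cycs the values were between -0.803 (Apaf1) and -0.658 (Casp6). These describe only 6 libraries, which differ in group, in tissue marker transcripts and in scaling factor, and no p is given.

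Among the 3527 other named genes that passed the filter, those with the most similar pattern were Alox5ap (r = 0.999), Dock5 (0.997) and Fbxl20 (0.996) for Ripk3. Alox5ap, which serves leukotriene synthesis in leukocytes, had 526, 692 and 989 scaled counts after sound trauma alone and 945, 994 and 992 with MSC treatment. For Bcl2 they were AI467606 (0.996), Abhd2 (0.995) and Lacc1 (0.994). For Apaf1 they were Sema4a (0.994), Tmem2 (0.993) and Crlf2 (0.993), and for Casp6 they were Rgs14 (0.993), Adss (0.993) and Baz1a (0.986). For Cycs they were Pnpla2 (0.999), a lipase of fat stores, and Uqcrfs1 and Uqcrc1 (0.998 each), which are subunits of the respiratory complex that passes electrons to cytochrome c. Each r is over the 6 libraries, and all of these genes were likewise listed by the authors.

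Cycs ran with the levels of respiratory chain and skeletal muscle transcripts. The 52 respiratory chain genes with a name (of 78 in the list) summed to 161845, 71498 and 74571 scaled counts after sound trauma alone and 111053, 68169 and 65950 with MSC treatment. Specimen 6 had the highest value for 51 of the 52, and r of their sum with Cycs was 0.995. Atp5b, a subunit of ATP synthase, had 21233, 10711 and 10224 after sound trauma alone and 15488, 9576 and 9192 with MSC treatment. The 13 named skeletal muscle genes (of 14) summed to 959502, 39223 and 225250 after sound trauma alone and to 547056, 86685 and 94088 with MSC treatment. Specimen 6 had the highest value for all 13, among them Acta1, skeletal muscle actin, at 197744, and r of their sum with Cycs was 0.905. All of these genes were listed as down-regulated on this contrast, as Cycs was, so the likeness is no independent evidence. The part of muscle RNA in the level of Cycs was not tested. With specimens 6 and 13, the libraries richest in muscle transcripts, left out together, a choice made after the data were seen, the log2 difference of Cycs was -0.093.

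The 4 members listed as up-regulated ran with several marker lists, of the cochlea, of blood cells and of bone. Every named marker in these lists was itself listed by the authors as up-regulated on this contrast, as the 4 members were, so that a shared pattern over these libraries follows in part from the selection and is no independent evidence. The sum of the 6 named cochlear markers had r of 0.913 with Ripk3, 0.887 with Bcl2, 0.751 with Apaf1 and 0.745 with Casp6. The 7 named myeloid markers (of 14), the most abundant being Mpo and Elane of granulocytes, complement C3 and Cd68 of macrophages, summed to 12565, 14350 and 21606 after sound trauma alone and 17784, 19530 and 18695 with MSC treatment. Sound trauma specimens 6 and 8 were the lowest for this sum, as for Ripk3, and r was 0.955 with Ripk3, 0.906 with Bcl2, 0.843 with Apaf1 and 0.812 with Casp6. The 3 named lymphocyte markers (of 14; Ms4a1, Cd4 and Cd3d) summed to 209, 352 and 428 after sound trauma alone and 361, 538 and 577 with MSC treatment, with r of 0.960 with Bcl2, 0.906 with Ripk3, 0.896 with Apaf1 and 0.892 with Casp6. The 4 named markers of bone and fibroblasts (of 10) summed to 58772, 67564 and 112204 against 73483, 92106 and 100301, with r of 0.903 with Bcl2, 0.858 with Ripk3, 0.761 with Apaf1 and 0.672 with Casp6. No marker named in these lists was at 0 in any library, and of 8 endothelial markers 0 had a name. The part of cochlear, blood or bone cells in the levels of the members was not tested.

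**Figure D3:**
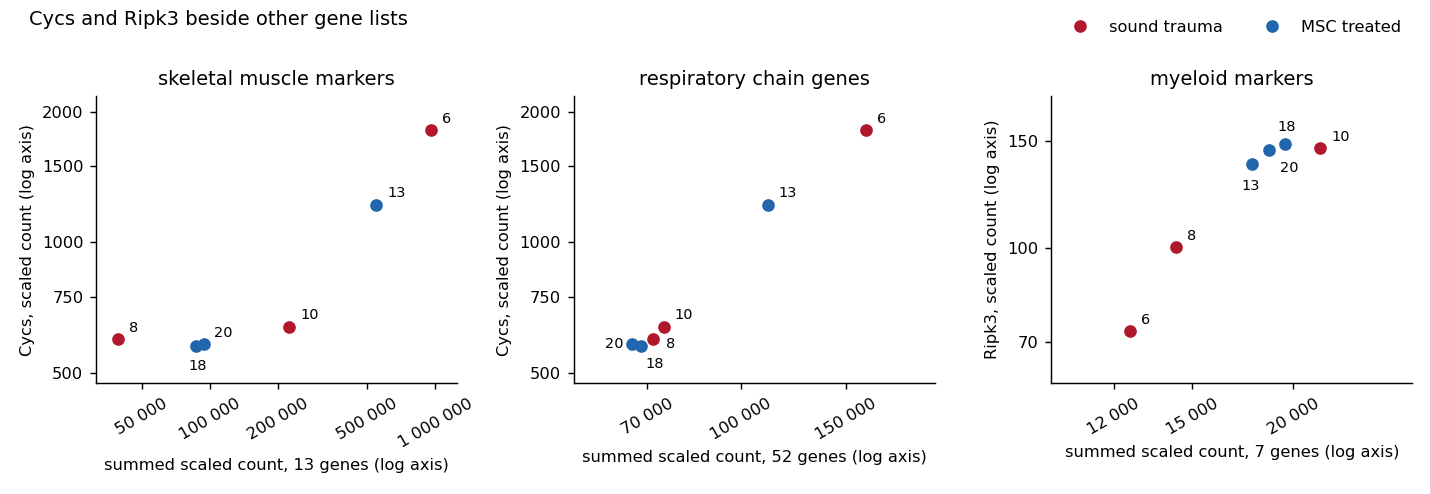
Scaled count of Cycs against the summed scaled counts of skeletal muscle markers and of respiratory chain genes, and of Ripk3 against myeloid markers, on log axes, 1 point per library labelled with its specimen (sound trauma red, MSC treated blue). Specimens 6 and 13 are highest on both axes for Cycs, and sound trauma specimens 6 and 8 are lowest on both axes for Ripk3.

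The rest of the cell death network was read from 76 genes in 12 lists, of which 16 have a name in the authors' lists. Genes outside those lists were tested by identifier only, so that the pore-forming Bax and Bak1 and the other unnamed genes of the network are not described here. Of the 16 named genes, members included, 11 were fitted higher and 5 lower with MSC treatment. Over all genes tested 49.8% were fitted lower, and of the 3716 genes with a symbol 1090 were listed as up-regulated. As for the members, no test is given, since the same contrast chose these genes. The median log2 difference was 0.31, beside 0.0014 over all genes tested. All 16 had been selected by the authors on these libraries, so their directions are no independent evidence. With each library left out in turn, an alternative added after the data were seen, 0 of the 11 genes that are not members turned in sign. Several moved in size: without sound trauma specimen 6 the log2 difference was 0.13 for Naip2, 0.30 for Birc3 and 0.12 for Bmf, and without specimen 8 it was 0.58 for Tnf and 0.11 for Mcl1. With specimens 6 and 8 both left out, the signs of Bcl2l2, Hrk, Zmat3 and Birc3 did turn. Relative to the mean of the MSC treated animals, specimen 10 was at -0.25 log2 units for Bcl2l2, -0.16 for Hrk and -0.17 for Zmat3. For Birc3 it was at 0.097.

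Among survival genes, 5 of 6 were fitted higher with MSC treatment. Mcl1, a relative of Bcl2, had 2363, 2051 and 2494 scaled counts after sound trauma alone and 2671, 2676 and 2535 with MSC treatment. All MSC treated values were above, though the log2 difference was small, 0.19 (standard error 0.13). Birc3, an inhibitor of apoptosis induced by NF-kB, had 225, 287 and 501 against 376, 482 and 567, a log2 difference of 0.55 (0.32), with sound trauma specimen 10 above 2 of the 3 MSC treated animals. Cflar, which blocks caspase-8 at death receptors, had 700.0, 749 and 930.0 against 1014, 987 and 885. Naip2, of the same family as Birc3 and a sensor of bacterial proteins, had 83.4, 151 and 177 against 182, 150.1 and 212. Naip2 was counted as a survival gene by that family alone. Bcl2l2, the survival protein Bcl-w, had the opposite sign, with 629, 759 and 426 against 480.0, 547 and 492. Its log2 difference was -0.22 (0.22), which was -0.034 without sound trauma specimen 8 and -0.45 without sound trauma specimen 10.

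Among death genes, 6 of 8 were fitted higher with MSC treatment. Gsdmd, whose cleaved form makes the pores of pyroptosis, had 246, 254 and 339 scaled counts after sound trauma alone and 368, 351 and 404 with MSC treatment, a log2 difference of 0.43 (standard error 0.17) with no overlap. Tnf, the cytokine that can start apoptosis and necroptosis, had 15.1, 6.69 and 17.0 against 27.0, 20.4 and 26.2. Its log2 difference of 0.96 (0.42) rests on few reads. Bmf, a BH3-only protein that binds and blocks Bcl2, had 272, 349 and 406 against 353, 402 and 480.5. Hrk, a BH3-only protein of neurons, had 27.8, 69.8 and 17.9 against 24.9, 27.6 and 11.6 and the opposite sign (-0.68, standard error 0.58, and -0.15 without sound trauma specimen 8). The log2 difference of Hrk was -1.10 without sound trauma specimen 10 and -0.31 without MSC treated specimen 20. The highest value of Hrk was in sound trauma specimen 8, which also held the most transcripts of the neuron markers. Whether they account for it was not tested.

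The other named genes were nuclear and p53 genes. Lmnb2, a lamin of the nuclear envelope, had 326, 496 and 339 scaled counts after sound trauma alone and 303, 303 and 319 with MSC treatment. All MSC treated values were below, with a log2 difference of -0.30 (0.19), or -0.11 without sound trauma specimen 8 and -0.41 without specimen 6. Zmat3, a target of p53, had 586, 618 and 389 against 443, 441 and 425. Its log2 difference was -0.25 (0.20), or -0.13 without specimen 8 and -0.46 without sound trauma specimen 10. Both were highest in sound trauma specimen 8.

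The medians of survival and death genes, relative to the MSC treated animals, were both below 0 in each sound trauma library. Most of these genes were listed by the authors as up-regulated on this contrast, so medians below 0 follow in part from that selection. Relative to the mean of the MSC treated animals, the median of the 6 survival genes was -0.60 log2 units for specimen 6, -0.36 for specimen 8 and -0.038 for specimen 10. For the 8 death genes the medians were -0.63, -0.29 and -0.15. The difference between the 2 sets was not tested, and single genes went the other way: Cycs was 1.29 above that mean in specimen 6, Hrk was 1.75 above it in specimen 8, and Bcl2l2 was 0.31 and 0.59 above it in specimens 6 and 8. Of the 16 genes, 9 were lowest in specimen 6 and 11 in specimen 6 or 8. Over all 15970 genes the lowest library was specimen 6 in 30.1%, specimen 8 in 21.2% and specimen 10 in 14.0%.

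**Figure D4:**
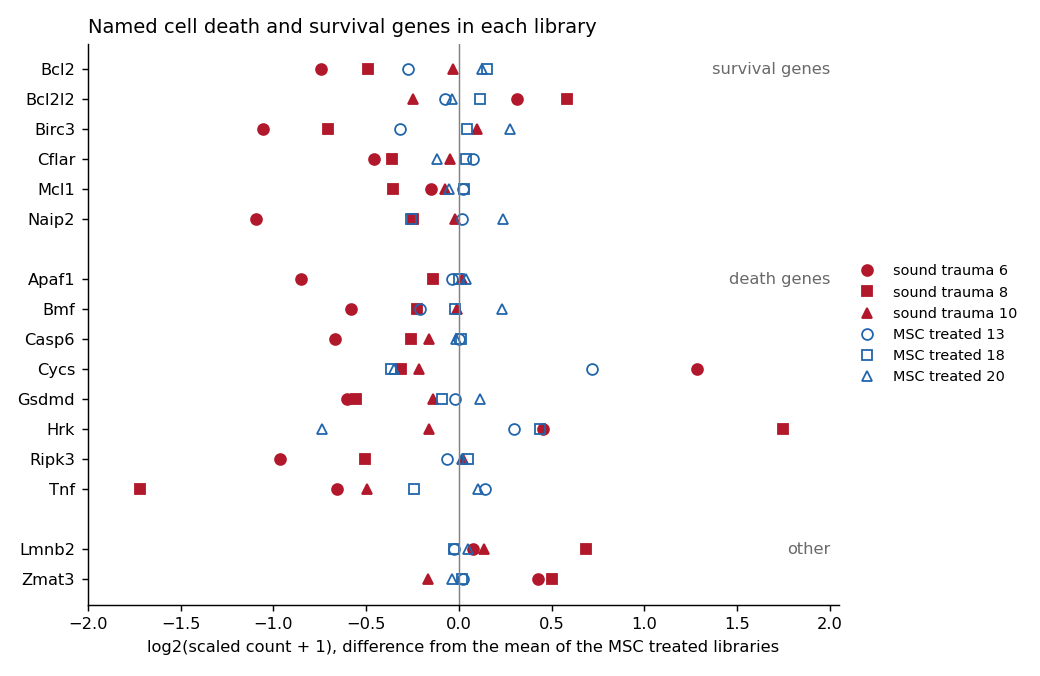
Difference of log2(scaled count + 1) from the mean over the 3 libraries with MSC treatment (horizontal axis, log2 units) for 16 named cell death and survival genes, 1 symbol per library. For Bcl2, Apaf1, Casp6 and Ripk3 the filled circle of sound trauma specimen 6 is farthest to the left, and the triangle of specimen 10 lies closer to 0 than those of specimens 6 and 8.

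With sound trauma specimens 6 and 8 both left out, so that specimen 10 stood alone for its group and was taken to vary like the MSC treated animals, the log2 difference was 0.030 for Bcl2, -0.019 for Apaf1, -0.024 for Ripk3, 0.16 for Casp6 and 0.22 for Cycs. Without specimen 8 alone the differences were 0.39 for Bcl2, 0.42 for Apaf1 and 0.47 for Ripk3, and without specimen 6 alone 0.26, 0.061 and 0.24. For Apaf1 specimen 6 thus carried most of the difference, while for Bcl2 and Ripk3 it was near 0 only with both left out. With only specimens 6 and 13 left out, they were 0.40 for Bcl2, 0.078 for Apaf1, 0.21 for Casp6 and 0.27 for Ripk3.

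**Figure D5:**
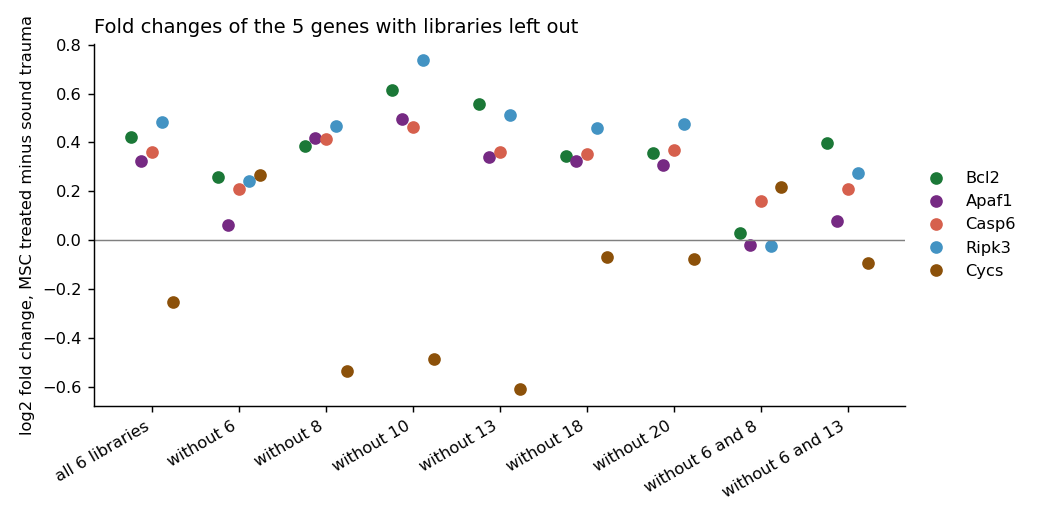
Log2 difference, MSC treated minus sound trauma (vertical axis), of the 5 genes with all libraries and with the specimens named on the horizontal axis left out. Without specimens 6 and 8 the points of Bcl2, Apaf1 and Ripk3 lie between -0.024 and 0.030, and without specimen 6 the point of Cycs moves from -0.25 to 0.27.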

How the data were processed

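Reads were trimmed by the authors, aligned with the AIR package to the C57BL/6NJ genome and deposited as a signal per gene, read counts scaled by 1 factor for each library. The counter and its use of strand are not given in the sources used here; RefSeq places other genes over Bcl2 (Mir3473f, Gm37053), Apaf1 (Gm25390, Ikbip), Casp6 (Gm46825, Gm40150) and Ripk3 (Gm32092). The authors' lists of changed genes hold an FDR and a log fold change from NOISeq, neither used here, and the deposited mean FPKM of each group, printed as the authors' values.

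All values (100%) were whole multiples of 1 read (tolerance 0.1), and reads were recovered from them. Of 25369 genes with a read, filterByExpr (edgeR 4.0.16) kept 15970, all 5 members included, for limma 3.58.1 (limma-trend, two-sided, Benjamini-Hochberg) on log2(scaled count + 1), in R 4.3.3. The edgeR quasi-likelihood test, DESeq2 1.42.0, limma-voom, other scalings, pseudocounts of 0.1 and 10, other filters and left-out libraries were alternatives. The fits were tested on simulated data. Whether animals were housed or processed in batches is not in the labels, and p-values measure the spread between these animals. Poisson intervals cover counting error only.

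The members and lists were chosen with earlier results of these data known. Named are the members, every cell death gene with a symbol (3716 genes have one), the 3 genes most correlated with each member, and at most 4 examples per other list, those with the highest mean.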

Additional observations from a re-analysis of the deposited data

How the results depend on the processing

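Leaving out sound trauma specimens 6 and 8 together moved Bcl2 to 0.030, Apaf1 to -0.019, Casp6 to 0.16 and Ripk3 to -0.024 on the log2 scale. With single libraries left out, the log2 differences ranged from 0.26 to 0.62 for Bcl2, 0.061 to 0.50 for Apaf1, 0.21 to 0.46 for Casp6, 0.24 to 0.74 for Ripk3 and -0.61 to 0.27 for Cycs, and from 0.066 to 0.41 for Bcl2 against the 4 death genes, which was -0.054 without specimens 6 and 8. The sign held in 16 of 16 alternatives for Bcl2 and Casp6, 15 of 16 for Apaf1 and Ripk3, 14 of 16 for Cycs and 9 of 10 for the balance. The alternatives reuse the libraries on which the members were chosen, so a held sign is no independent evidence. Other tests, scalings and pseudocounts gave 0.39 to 0.49 for Bcl2, 0.27 to 0.40 for Apaf1, 0.33 to 0.43 for Casp6, 0.41 to 0.55 for Ripk3 and -0.38 to -0.18 for Cycs. The number of genes called over all genes was 0, and from 0 to 1 with single libraries left out, the 1 gene without sound trauma specimen 10. DESeq2 gave no adjusted p for 28 genes. Scaling by total reads lowered the share of genes with a lower fitted value from 49.8% to 38.1%. No paired analysis was possible because the groups share no specimen numbers. Having 3 animals per group limits every comparison above. Transcripts of muscle and neuron markers also differed between libraries, and their part in these comparisons was not tested.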
